A study of Mus musculus with 22 samples.

Results

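The effect of deleting Sav1 in the embryonic mouse heart was measured by pooling both LIN9 genotypes of the second RNA-seq experiment. This comparison used 12 of the 22 samples of the series, 6 libraries labelled Sav1 KO and 6 labelled Sav1 wt. Both sets contained 3 libraries with a LIN9 wt and 3 with a LIN9 KO genotype. A single additive model with Sav1 and LIN9 genotype was fitted to the read counts. It covered the 17675 of 48709 genes in the table whose mean count over the 12 libraries was above 1.

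RNA was taken from whole heart ventricles of mouse embryos at stage E13.5. According to the study, all embryos carried Nkx2.5-Cre, a recombinase that is active in early cardiac precursor cells. The 4 genotypes were LIN9 wt Sav1 wt, LIN9 wt Sav1 KO, LIN9 KO Sav1 wt and LIN9 KO Sav1 KO, with 3 libraries each. Sav1 wt stands for Sav1 +/+ and Sav1 KO for Sav1 fl/fl (the Sav1tm1.1Dupa/J allele). LIN9 KO stands for Lin9 fl/fl, and LIN9 wt is labelled wild-type but given as Lin9 fl/+ in the study's legends, so that these controls would carry a floxed Lin9 allele as well. The tissue was not sorted, and cells in which Cre is not active, such as blood cells, contribute to all libraries. In such bulk samples, fewer cells of a type and less RNA per cell cannot be told apart. According to the study, RNA was isolated in triplicates, and its legend for the LIN9 comparison places a triplicate within each biological replicate. Nothing in the labels says whether a library came from a single embryo, so p-values measure the spread between these samples, which may be technical in part.

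SAV1 (Salvador) is a scaffold protein of the Hippo cascade that brings the MST kinases together with their substrates, the LATS kinases. Active LATS kinases phosphorylate the coactivators YAP and TAZ, which are then kept out of the nucleus. When the cascade is lost, YAP and TAZ bind TEAD transcription factors and activate growth and cell cycle genes, and in the fetal heart this is known to increase cardiomyocyte proliferation. LIN9 is a core subunit of the MuvB complex, which together with B-MYB activates genes of late cell cycle phases.

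Total counts ranged from 2770741 to 2999877 per library, since the authors had scaled all libraries to the one with the fewest mappable reads. The first principal component, with 50.2% of the variance, separated both LIN9 genotypes. The second component, with 20.3%, set LIN9 KO Sav1 wt replicate 1 apart at 44.8, whereas the others lay between -14.8 and 22.1. In the same library 4 Y-linked genes summed to 2.63 CPM (counts scaled to the size of the library), compared with 90.7 to 229 in the other 11 libraries. The sum of 6 structural RNA genes, which were chosen after seeing the data and include 18S rRNA and 7SL RNA copies, ranged from 1073 to 26460 CPM. In the LIN9 wt background this sum was 5721 to 8617 CPM in Sav1 wt and 2437 to 3424 CPM in Sav1 KO. In the LIN9 KO background it was 1073, 1468 and 26460 CPM in Sav1 wt and 10090 to 18120 CPM in Sav1 KO. The part of these differences in the results below was not tested. Of 10 cardiomyocyte markers, 9 were tested and summed to between 10670 and 25000 CPM. The single hepatocyte marker tested did not exceed 3.52 CPM. The single lung and gut epithelium marker tested was at 13.7 to 21.95 CPM in LIN9 wt. In LIN9 KO it was at 48.84 to 56.42 CPM in Sav1 wt and 36.13 to 38.77 CPM in Sav1 KO. Its part in the results was not tested.

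The deleted part of Sav1 is shown first, because it determines what the counts can say about the knockout. LoxP sites flank exon 3, which in the RefSeq transcript is 271 bases long and entirely coding. It lies on the minus strand of chromosome 12 at chr12:69975968-69976238 (GRCm38.p6), within the gene's transcribed region from 69965012 to 69987002. Its length is not a multiple of 3, with a remainder of 1. Exon 3 makes up 10.7% of the 2524 bases of the transcript, so that a count per gene is mostly taken from exons that remain after recombination and is no direct check of the deletion. Of the RT-qPCR primers that the study used for Sav1, the forward primer matched exon 3 and the reverse primer exon 4, with an amplicon of 102 bases. The exon is printed 5′ to 3′ from the RefSeq genome, with the site of the forward primer in capitals, followed by both primers.
Sav1 exon 3: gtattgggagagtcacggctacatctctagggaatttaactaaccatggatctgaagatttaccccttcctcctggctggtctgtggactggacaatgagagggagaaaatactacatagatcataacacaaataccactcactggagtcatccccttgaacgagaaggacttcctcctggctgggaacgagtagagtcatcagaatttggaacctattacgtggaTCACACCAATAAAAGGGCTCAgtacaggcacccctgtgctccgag
Sav1 forward primer: tcacaccaataaaagggctca
Sav1 reverse primer: ctttcagtttgttgtggctga

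Counts for Sav1 as a whole were lower in all Sav1 KO libraries than in all Sav1 wt libraries. In LIN9 wt ventricles Sav1 was at 54.5, 56.2 and 61.9 CPM in Sav1 wt and at 43.1, 36.1 and 43.0 CPM in Sav1 KO. In LIN9 KO ventricles the corresponding values were 51.9, 49.9 and 47.4 CPM and 44.0, 40.5 and 42.3 CPM. The mean difference was -12.1 CPM (exact permutation test within LIN9 backgrounds, two-sided, p = 0.005, the smallest value that the 400 arrangements can give). In the model across all genes the log2 fold change of Sav1 was -0.37 ± 0.089 (SE), with an unadjusted p of 2.7e-04 and an adjusted p of 0.188. The gene whose deletion defines the groups thus ranked below the threshold when corrected for 17675 tests. Lin9 differed by 2.88 CPM between Sav1 KO and Sav1 wt (exact permutation test, two-sided, p = 0.3). This difference lay between 1.38 and 4.41 CPM with 1 library left out. Lin9 was at 13.2 to 17.9 CPM in LIN9 KO Sav1 wt and at 18.5 to 26.1 CPM in LIN9 KO Sav1 KO, and the latter range overlapped with the 19.2 to 31.4 CPM of LIN9 wt Sav1 KO. Since only a single exon of Lin9 is floxed as well, these counts do not check the LIN9 labels either.

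Pooled over both LIN9 backgrounds, 3 genes passed the threshold for the Sav1 effect, 2 that rose (Erdr1 and Gm21887; 0.0113%) and 1 that fell (Snapc1; 0.00566%). The threshold was an adjusted p (Benjamini-Hochberg) under 0.05 in edgeR's quasi-likelihood test, and the 3 genes are 0.017% of the genes tested. In the same fit 6214 genes (35.2%) passed for the LIN9 genotype. Without adjustment, 1461 genes (8.27%) had a p under 0.05, of which 655 (3.71% of all genes) had higher and 806 (4.56%) lower counts in Sav1 KO. The direction went with the exonic length of the genes, with 110 higher and 274 lower among the 4405 shortest genes (up to 2031 bases) and 239 higher and 156 lower among the 4400 longest (from 6249 bases). The median log2 fold change was -0.0467 in the former and 0.0332 in the latter, with -0.0729 and 0.0598 within LIN9 KO and -0.00772 and 0.017 within LIN9 wt. The part of length in the results was not tested. In 80 genes (0.453%) all Sav1 KO libraries were above all Sav1 wt libraries in both backgrounds, and in 108 genes (0.611%) all were below. With 1 library left out, which makes a separation easier, these counts were 107 to 200 and 135 to 246. For comparison, 64 genes (0.362%) were separated upwards in LIN9 wt and downwards in LIN9 KO, and 42 genes (0.238%) the other way round. With 1 library left out at a time, between 1 and 8 genes passed. The count was 1 without LIN9 wt Sav1 wt replicate 1, LIN9 wt Sav1 KO replicate 2 or LIN9 wt Sav1 KO replicate 3. It was 5 to 8 without LIN9 wt Sav1 wt replicate 2 (6) or 3 (5), LIN9 wt Sav1 KO replicate 1 (7), LIN9 KO Sav1 wt replicate 1 (8) or LIN9 KO Sav1 wt replicate 3 (7).

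Snapc1, which encodes a subunit of the complex that drives transcription of small nuclear RNA genes, fell most clearly. In LIN9 wt ventricles it was at 26.6, 23.3 and 28.4 CPM in Sav1 wt and at 13.46, 12.16 and 16.38 CPM in Sav1 KO. In LIN9 KO ventricles it was at 21.4, 20.7 and 21.2 CPM and at 13.63, 14.09 and 13.52 CPM. No Sav1 KO library reached the level of a Sav1 wt library, a separation found downwards in 19 genes (0.107%). The log2 fold change was -0.76 ± 0.12 (SE, adjusted p = 0.0102), with -0.90 within LIN9 wt and -0.62 within LIN9 KO. Snapc1 lies on chromosome 12 from 73964481 to 73988966, 3.98 Mb from Sav1. The call was lost without LIN9 wt Sav1 wt replicate 1 (adjusted p = 0.0743) and without LIN9 wt Sav1 KO replicate 2 (adjusted p = 0.0715).

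The genes that rose, Erdr1 and Gm21887, are copies of the same gene at the shared end of the sex chromosomes. The count table gives them separate identifiers, on chromosome Y from 90784738 to 90816464 and on chromosome X from 170009659 to 170019281, whereas RefSeq lists Gm21887 as a synonym of Erdr1. Of the 50-base windows of the annotated Gm21887 transcripts, 59.7% occurred identically in those of Erdr1, which are 40.5% of the windows of the Erdr1 transcripts. Reads from these shared stretches cannot be assigned to a copy, and both are treated here as a single result. Erdr1 was at 78.3 to 123 CPM in the 6 Sav1 wt libraries and at 135 to 186 CPM in the 6 Sav1 KO libraries, with a log2 fold change of 0.54 ± 0.093 (SE, adjusted p = 0.0231). Gm21887 ranged from 67.8 to 91.8 CPM and from 108 to 136 CPM, with a log2 fold change of 0.54 ± 0.085 (SE, adjusted p = 0.0102). Added together, both copies were at 146 to 215 CPM in Sav1 wt and at 244 to 313 CPM in Sav1 KO. The library with almost no Y-linked counts, LIN9 KO Sav1 wt replicate 1, was at 190 CPM. The study does not state how reads matching both copies were counted, so these sums may include some reads more than once. The call for Gm21887 was lost without LIN9 wt Sav1 KO replicate 3 (adjusted p = 0.0621). The call for Erdr1 was lost without any one of LIN9 wt Sav1 wt replicate 1 (0.0841), LIN9 wt Sav1 KO replicate 2 (0.0603) or 3 (0.125), or LIN9 KO Sav1 KO replicate 1 (0.111), 2 (0.115) or 3 (0.0824; adjusted p in each case).

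**Figure D1:**
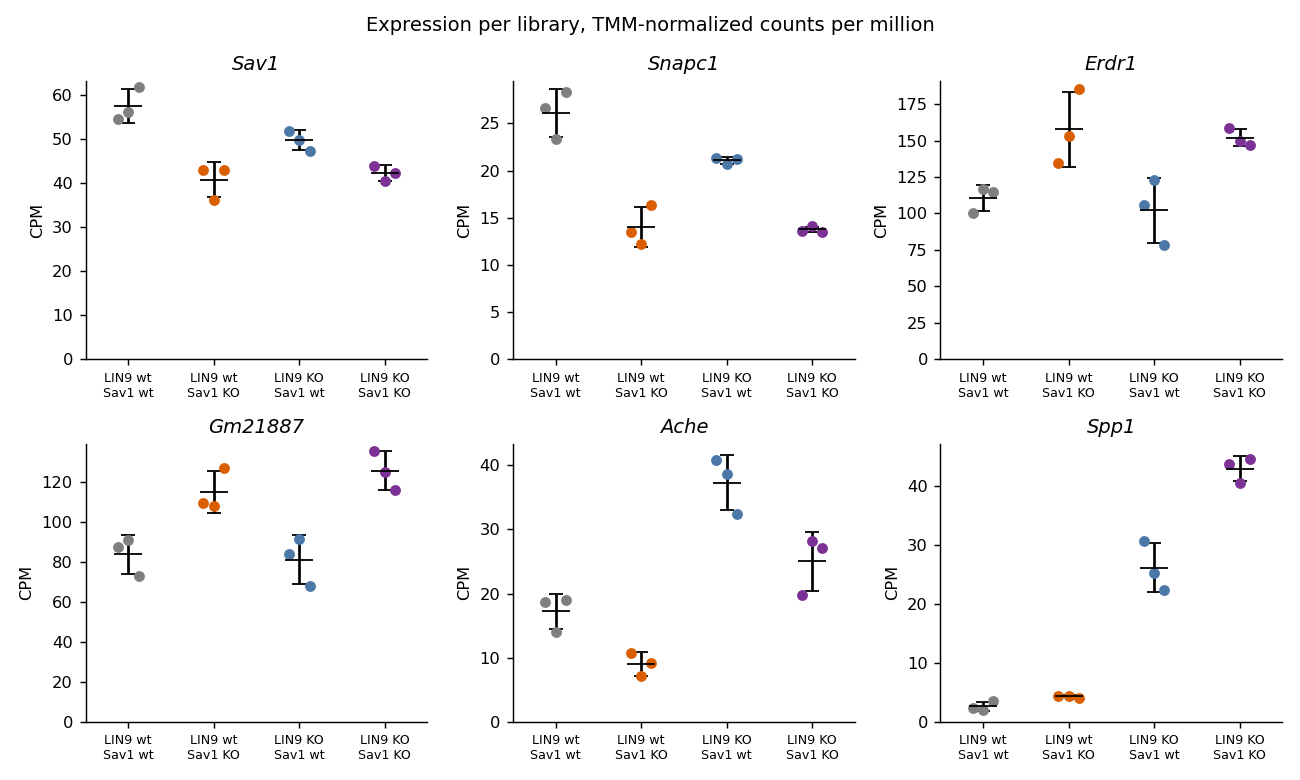
TMM-normalized CPM of 6 genes (y axes, from 0) in the 4 genotypes (x axis); points are libraries, horizontal marks and bars are the mean and SD of 3 libraries. For Sav1, Snapc1, Erdr1 and Gm21887 all 6 Sav1 KO libraries lie on one side of all 6 Sav1 wt libraries, whereas Ache and Spp1 are separated within each LIN9 background only.

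A further 16 genes of low p did not pass the threshold and are given by their values. Ache, the acetylcholinesterase gene, missed it narrowly with a log2 fold change of -0.71 ± 0.13 (SE, adjusted p = 0.05002). It passed in 8 of 20 alternatives, among them DESeq2's Wald test (adjusted p = 0.0162) and the fits without LIN9 wt Sav1 wt replicate 2 (0.0366), LIN9 KO Sav1 wt replicate 3 (0.0233) or LIN9 KO Sav1 KO replicate 2 (0.0412), and its adjusted p ranged from 0.000497 to 1 over the alternatives. It was at 14.05 to 19.02 CPM in LIN9 wt Sav1 wt and at 7.09 to 10.8 CPM in LIN9 wt Sav1 KO, and at 32.4 to 40.8 CPM and 19.8 to 28.2 CPM in the LIN9 KO background. Spp1, which encodes the secreted matrix protein osteopontin, had a log2 fold change of 0.71 ± 0.14 (SE, adjusted p = 0.0565). Its levels differed widely between the backgrounds, with 2.06 to 3.46 CPM against 4.09 to 4.39 CPM in LIN9 wt and 22.4 to 30.6 CPM against 40.5 to 44.5 CPM in LIN9 KO. The ratio was nevertheless alike, with log2 fold changes of 0.71 and 0.71. Spp1 passed in 3 of 12 fits with 1 library left out.

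Of the remaining 14 genes, 6 had lower counts in Sav1 KO. The log2 fold change was -0.57 for the zinc finger factor Sall1, -1.12 for the Iroquois homeobox gene Irx6 and -0.50 for Sox7, a factor of endothelial cells. It was -0.57 for the MAP kinase phosphatase Dusp4, -0.42 for the proapoptotic BCL2 family member Bmf and -0.52 for the ubiquitin-conjugating enzyme Ube2l6. Their adjusted p ranged from 0.0664 for Sall1 to 0.151 for Sox7. Sall1 passed in 3 of 12 fits with 1 library left out and Dusp4 in 1.

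The other 8 of these 14 genes had higher counts in Sav1 KO. The log2 fold change was 0.36 for Bves, a popeye domain membrane protein of heart muscle, 0.63 for the glutamate receptor subunit Gria1 and 0.38 for the actin-binding protein Coro6. Nav1, Ahnak and Rnf207 were at 0.32, 0.33 and 0.41, the uncharacterized gene 1110002E22Rik at 0.39 and the processed pseudogene Gm4742 at 0.75. Bves was at 211 to 248 CPM in LIN9 wt Sav1 wt and 296 to 322 CPM in LIN9 wt Sav1 KO, and at 59.0 to 73.3 CPM and 77.9 to 84.9 CPM in LIN9 KO, without overlap in either background. Gm4742 was among the 21 genes (0.119%) whose 6 Sav1 KO libraries were all above the 6 Sav1 wt libraries, although its log2 fold change was 1.18 in LIN9 wt and 0.32 in LIN9 KO. The adjusted p of these genes lay between 0.0664 and 0.137. Gria1 passed in 2 of 12 fits with 1 library left out. Bves, Coro6, Rnf207, 1110002E22Rik and Gm4742 passed in 1 each.

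Genes close to Sav1 on chromosome 12 passed an unadjusted p under 0.05 more often than genes elsewhere. Since these genes are linked to the floxed locus, they were described separately. Within 5 Mb of Sav1, and without Sav1 itself, 17 of 63 genes tested (27.0%; exact binomial 95% interval 16.6 to 39.7%, counting error only) were under this value, compared with 8.27% of all genes. Within 20 Mb the share was 14.3% (35 of 245 genes; 10.2 to 19.3%), and on chromosome 12 beyond 20 Mb it was 6.07% (21 of 346 genes). No test was made of these shares, and neighbouring genes are not independent. Snapc1 was the only one of the 245 genes to pass the adjusted threshold. The 17 genes near Sav1 differed in direction, 9 with higher and 8 with lower counts in Sav1 KO, and the median absolute log2 fold change within 5 Mb was 0.20 compared with 0.13 over all genes. Chromosome 12 as a whole was at 9.63%, and the other chromosomes with 400 or more genes tested ranged from 7.06% on chromosome 15 to 9.21% on chromosome 11.

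The following genes near Sav1 were chosen after their values were seen. L3hypdh, which encodes an enzyme of hydroxyproline breakdown and lies 2.09 Mb from Sav1, had a log2 fold change of -0.61 (unadjusted p = 2.4e-04, adjusted p = 0.188) and did not overlap between the Sav1 genotypes in either background. Dact1, an inhibitor of WNT signalling at 1.32 Mb, was at -0.58, and Timm9, a subunit of mitochondrial protein import at 1.14 Mb, at 0.33. Klhdc2, at -0.20, lies 0.654 Mb on the other side of the gene. Sptb, which encodes the erythroid and muscle beta-spectrin and lies 6.59 Mb from Sav1, passed the threshold within LIN9 wt and is described with the separate backgrounds.

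**Figure D2:**
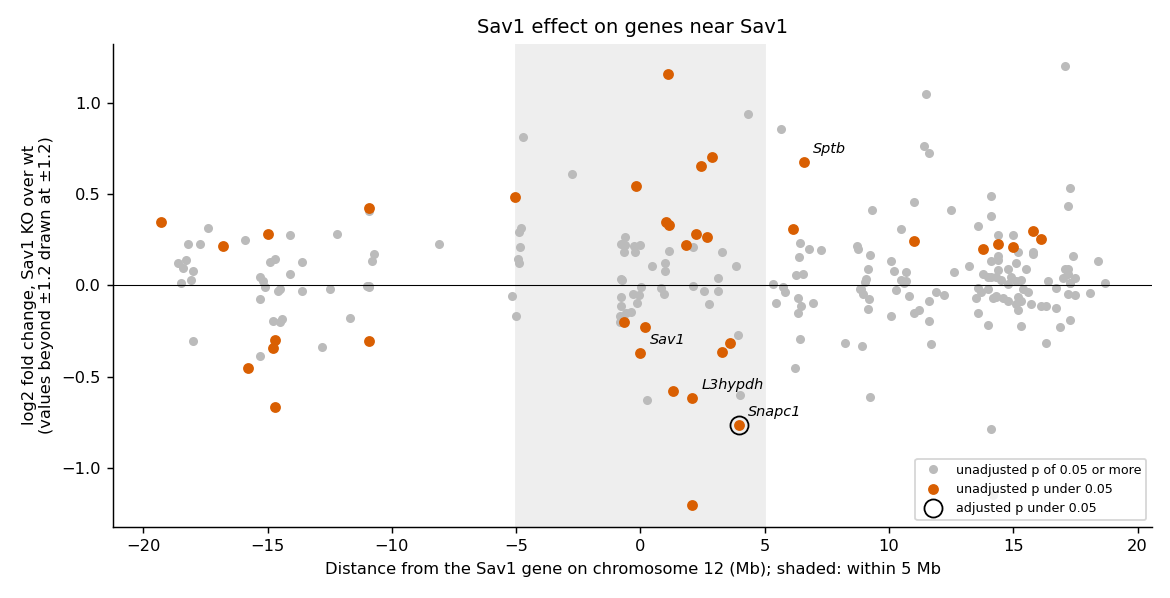
Log2 fold change of Sav1 KO over Sav1 wt (y axis, values beyond 1.2 drawn at the limit) against distance from the Sav1 gene on chromosome 12 in Mb (x axis), for Sav1 and 245 genes tested within 20 Mb. Orange points have an unadjusted p under 0.05, and the shaded 5 Mb on either side hold 17 of these besides Sav1; only Snapc1, circled, passed the adjusted threshold.

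The Sav1 effect was also fitted within each LIN9 background, and the difference between backgrounds was tested as an interaction. Within LIN9 wt, 3 genes passed (0.017%), namely Sptb, Gm4742 and Slit2. Within LIN9 KO, 2 genes passed (0.0113%), the metallothionein Mt1 and the linker histone gene H1f0, which both fell. Of these, Sptb rose from 65.2, 45.9 and 41.9 CPM to 111, 111 and 114 CPM in LIN9 wt (log2 fold change 1.13, adjusted p = 0.00894). In LIN9 KO it was at 64.9 to 67.1 CPM in Sav1 wt and at 56.2 to 87.9 CPM in Sav1 KO, which overlap. Slit2, a secreted guidance factor of the ROBO receptors, fell in LIN9 wt from 244 to 309 CPM to 170 to 196 CPM (log2 fold change -0.63) and was at 276 to 300 CPM and 270 to 325 CPM in LIN9 KO. Mt1 was at 67.7 to 93.8 CPM in LIN9 KO Sav1 wt and 36.6 to 51.1 CPM in LIN9 KO Sav1 KO (log2 fold change -0.80), compared with 0.08 within LIN9 wt. With the replicate number as a block, which pairs the LIN9 wt libraries, Slit2 and Gm4742 passed within LIN9 wt (adjusted p = 0.0101 and 0.0147), while Sptb did not (adjusted p = 0.0681). Before adjustment, 693 genes (3.92%) had a p under 0.05 within LIN9 wt and 2093 genes (11.8%) within LIN9 KO.

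These counts depended on single libraries. Without LIN9 KO Sav1 wt replicate 3, the library with the highest sum of structural RNA genes, 378 genes passed within LIN9 KO. Without LIN9 wt Sav1 wt replicate 1 the count was 21, without LIN9 KO Sav1 KO replicate 2 it was 15, without LIN9 KO Sav1 wt replicate 1 it was 4 and without LIN9 KO Sav1 KO replicate 1 it was 1. It was 0 without any one of the other 7 libraries. Within LIN9 wt the count was 0 without any one of the 5 libraries of this background other than LIN9 wt Sav1 wt replicate 1. It was 7 without LIN9 KO Sav1 wt replicate 1 and 5 without LIN9 KO Sav1 wt replicate 3.

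No gene passed the threshold for a difference of the Sav1 effect between backgrounds (0%) in edgeR's quasi-likelihood test, nor in DESeq2's Wald test. Before adjustment, 1156 genes (6.54%) had a p under 0.05 for this difference. Without LIN9 KO Sav1 wt replicate 3 the number past the adjusted threshold was 64, and without LIN9 wt Sav1 wt replicate 1 it was 2. The lowest p-values belonged to Slit2, the integrin subunit Itga3, the processed pseudogene Gm8349, the spindle orientation gene Insc, the uncharacterized gene 2310022B05Rik and Pcca, a subunit of the mitochondrial propionyl-CoA carboxylase (adjusted p from 0.439 to 0.482). Itga3 was at 35.0 to 36.7 CPM in LIN9 wt Sav1 wt and 48.1 to 50.5 CPM in LIN9 wt Sav1 KO, but at 41.8 to 51.2 CPM and 31.4 to 40.9 CPM in LIN9 KO. In this gene the pooled log2 fold change of 0.03 stands for effects of opposite sign, 0.46 and -0.42.

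**Figure D3:**
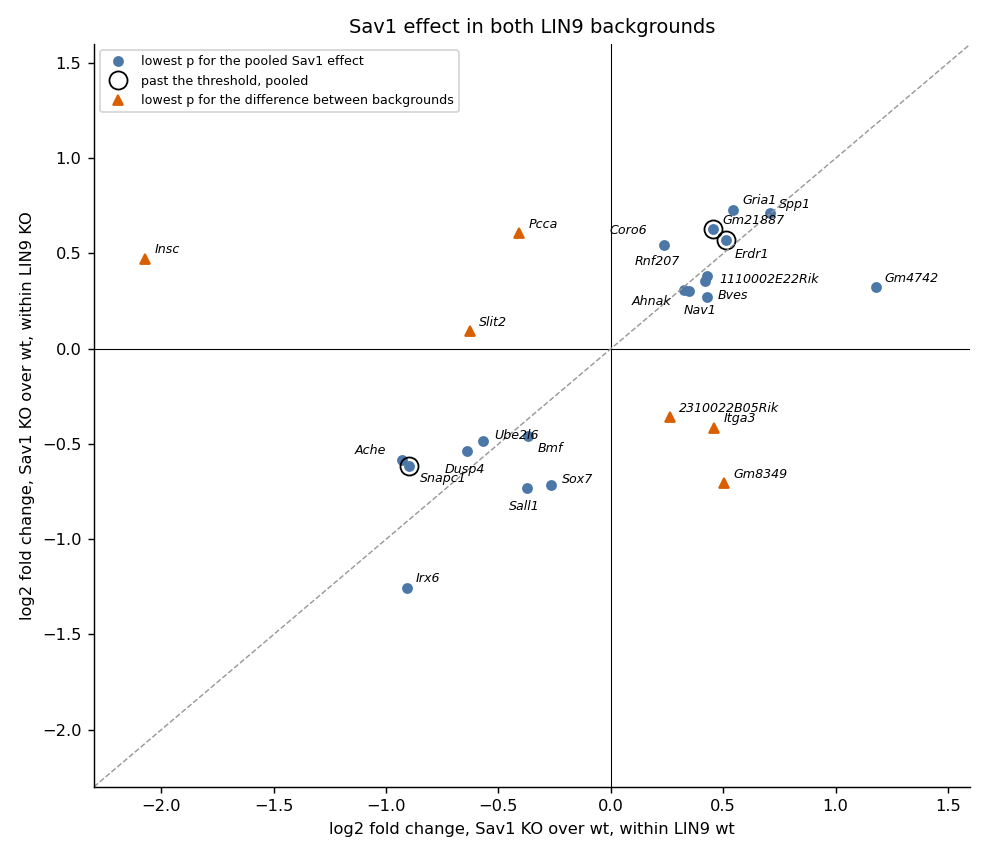
Log2 fold change of Sav1 KO over Sav1 wt within LIN9 wt (x axis) and within LIN9 KO (y axis) for 19 of the genes of lowest p in the pooled comparison (blue) and the 6 genes of lowest p for the difference between backgrounds (orange); the dashed line marks equal values. The blue genes were selected for a pooled effect and lie in the quadrants of equal sign, with Gm4742 at 1.18 and 0.32, whereas Slit2 is at -0.63 and 0.09.

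Beyond Sav1 itself, genes of the Hippo cascade had log2 fold changes near 0. All 16 genes of this list were tested and none passed the threshold, and Sav1 was the only one at an unadjusted p under 0.05 (6.25%, compared with 8.27% of all genes). The median log2 fold change was 0.01, compared with 0.00 over all genes. Of the upstream kinases, Stk3 and Stk4 (MST2 and MST1) were at 0.03 and -0.14, and Taok1, Taok2 and Taok3 at 0.21, 0.01 and -0.13. Lats1 and Lats2 were at 0.15 and -0.02, and the MOB adaptors Mob1a and Mob1b at -0.03 and 0.17. Nf2 (merlin), Frmd6, Wwc1 and Wwc2, which act upstream at the membrane, were at -0.01, -0.01, 0.16 and 0.00. The atypical cadherins Fat4 and Dchs1 were at 0.07 and 0.02.

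The effectors of the cascade likewise did not pass. Yap1 was at 178 to 266 CPM in Sav1 wt and 173 to 212 CPM in Sav1 KO, with a log2 fold change of -0.14 (adjusted p = 0.644). Wwtr1, which encodes TAZ, was at -0.12 (adjusted p = 0.686). Tead1, Tead2, Tead3 and Tead4 were at 0.03, -0.06, 0.02 and 0.17. Of 11 genes tested on the list of YAP, TAZ, TEAD and their cofactors, 2 (18.2%, compared with 8.27% of all genes) were at an unadjusted p under 0.05, the YAP inhibitors Ptpn14 (-0.20) and Vgll4 (-0.17), with adjusted p of 0.499 and 0.589. The angiomotins Amot and Amotl1 were at 0.01 and -0.07, and Vgll3 at 0.10.

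Among 21 tested YAP target genes, 10 were above and 11 below 0, with a median log2 fold change of -0.01 (0.03 within LIN9 wt and -0.02 within LIN9 KO). Their summed level was 2241 to 2361 CPM in LIN9 wt Sav1 wt and 2453 to 2535 CPM in LIN9 wt Sav1 KO, which do not overlap, and 2653 to 3102 CPM and 2827 to 3088 CPM in LIN9 KO, which do. The mean log2 CPM of the list, which weights all genes equally, overlapped in LIN9 wt as well (5.409 to 5.483 and 5.453 to 5.574). None passed the threshold, and 3 (14.3%, compared with 8.27% of all genes) were at an unadjusted p under 0.05, Cyr61 and Ankrd1 with higher and Ptpn14, which the list shares with the YAP inhibitors, with lower counts. Cyr61 (Ccn1), which encodes a matricellular protein, was at 40.1 to 50.2 CPM in LIN9 wt Sav1 wt and 62.8 to 64.6 CPM in LIN9 wt Sav1 KO. In LIN9 KO it was at 72.0 to 109 CPM and 88.6 to 104 CPM, which overlap, and the pooled log2 fold change was 0.29 (adjusted p = 0.382). Ankrd1, a sarcomere-associated YAP target, was at 858 to 1135 CPM in Sav1 wt and 1077 to 1239 CPM in Sav1 KO (0.18, adjusted p = 0.506). Ctgf (Ccn2) was at 0.14, Axl at -0.15 and Amotl2 at -0.06. Amotl2 had opposite signs in both backgrounds, 0.22 in LIN9 wt and -0.35 in LIN9 KO (interaction unadjusted p = 0.00154, adjusted p = 0.678).

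Cell cycle genes showed small differences. Of 42 S phase genes tested, 34 (81.0%) were above 0 in Sav1 KO, compared with 50.4% of all genes, but their median log2 fold change was 0.07 and only Exo1, a DNA repair exonuclease, was at an unadjusted p under 0.05 (0.33, adjusted p = 0.397). The median was 0.12 within LIN9 wt and 0.03 within LIN9 KO. S phase genes summed to 2944 to 3162 CPM in LIN9 wt Sav1 wt and 3254 to 3397 CPM in LIN9 wt Sav1 KO, without overlap. In LIN9 KO these sums were 2660 to 2725 CPM and 2621 to 2837 CPM, which overlap. Of 54 G2/M genes, 33 were above and 21 below 0, with a median of 0.03 (0.10 within LIN9 wt and -0.03 within LIN9 KO). Their sums overlapped in both backgrounds. In every same-numbered pair of LIN9 wt libraries the sums of both lists were higher in Sav1 KO. In LIN9 KO they were higher for some numbers and lower for others. No gene of either list passed. The share at an unadjusted p under 0.05 was 2.38% of S phase and 5.56% of G2/M genes, against 8.27% of all genes. Ect2, the exchange factor that activates RhoA for cytokinesis, did not overlap in either background, with 106 to 136 against 137 to 162 CPM in LIN9 wt and 71.3 to 101 against 109 to 116 CPM in LIN9 KO (0.30, adjusted p = 0.305). Anln (anillin), a scaffold of the contractile ring, was at 0.20 (adjusted p = 0.465) and Hmgb2 at -0.19 (adjusted p = 0.589). Hmgb2 lay between -0.227 and -0.0746 with 1 library left out.

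In the other cell cycle lists the share of genes at an unadjusted p under 0.05 was above the 8.27% of all genes, with 2 to 4 genes in each. On the list of MuvB, B-MYB and DREAM components these were Tfdp1 (0.20) and Rbbp4 (-0.16) of 14 tested, and among E2F and cyclin genes Ccnd1 (-0.22), Cdk6 (0.19) and Ccne1 (0.29) of 19. Of 6 CDK inhibitors tested, 5 were below 0, compared with 49.6% of all genes (median -0.18), with Cdkn1c at -0.18 and Cdkn1b at -0.18. Cdkn1c lay between -0.225 and -0.103 with 1 library left out. The median of the inhibitors was -0.03 within LIN9 wt and -0.35 within LIN9 KO. No member of these lists passed the threshold. Of the 20 tested genes of the study's RT-qPCR panel, which was chosen by the study, includes Sav1 itself and is no independent set, none passed, and the median was 0.08. An unadjusted p under 0.05 was found for 4 of them (20%), with higher counts of Ect2, Anln and Cyr61 and lower counts of Sav1.

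**Figure D4:**
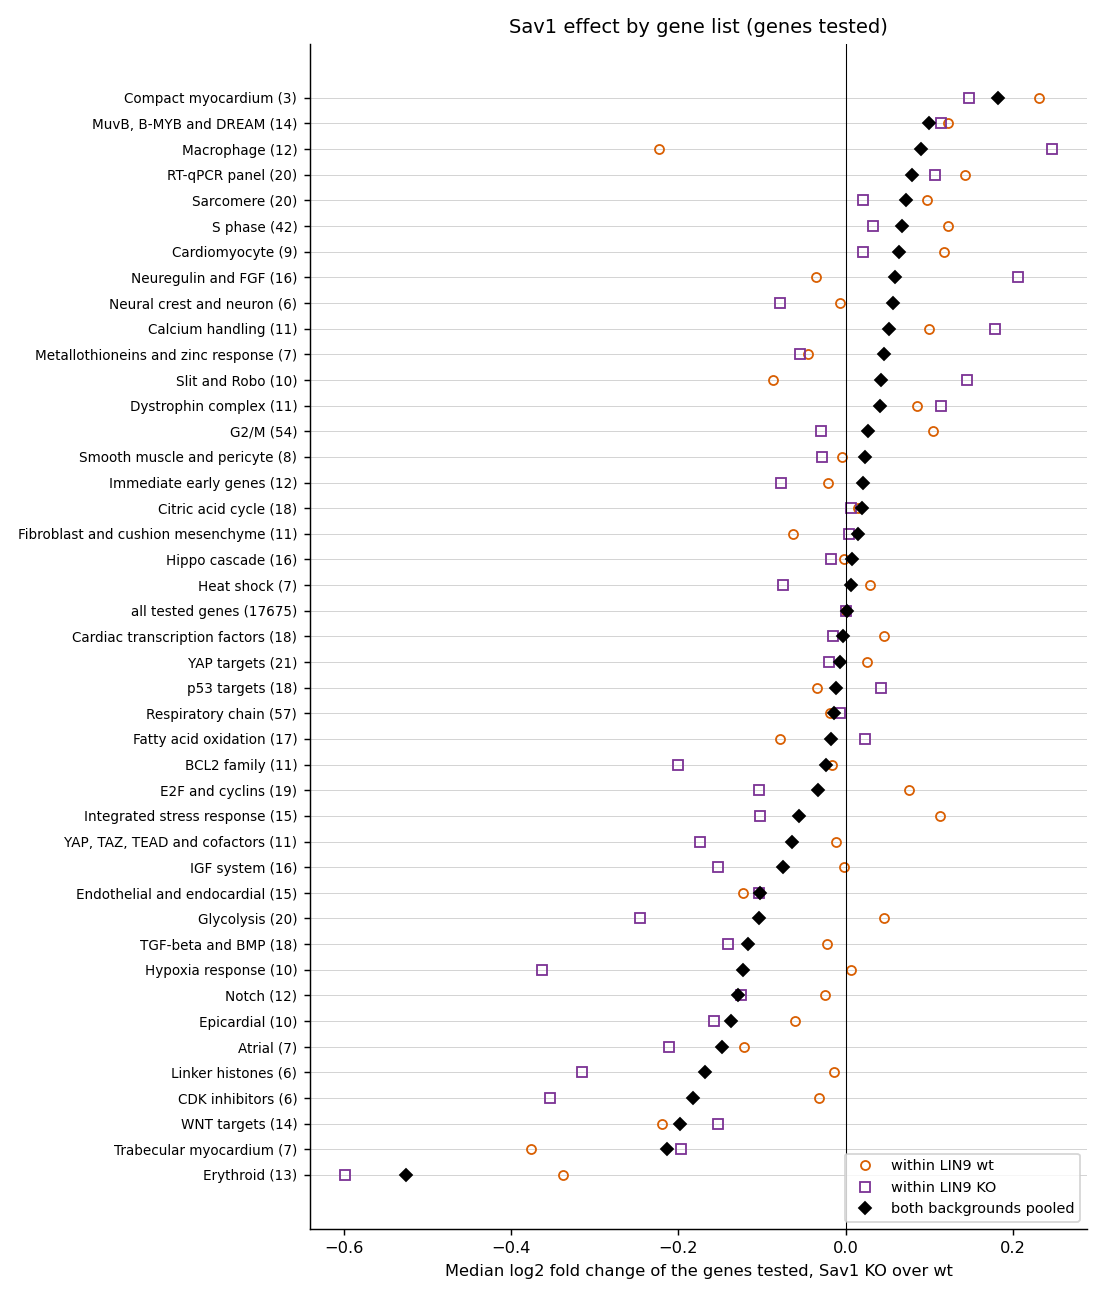
Median log2 fold change of Sav1 KO over Sav1 wt (x axis) for gene lists with 3 or more genes tested (y axis, number tested in parentheses): black diamonds, both backgrounds pooled; orange circles, within LIN9 wt; purple squares, within LIN9 KO. All tested genes lie at 0, the erythroid list at -0.53 and the compact myocardium list at 0.18, and no list member passed the threshold in the pooled comparison.

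No gene on the lists of the ventricular wall layers passed the threshold, and none was separated by Sav1 genotype in both backgrounds. Of 7 genes of the trabecular myocardium, the inner layer of muscular ridges, 6 were below 0 (median log2 fold change -0.21), compared with 49.6% of all genes. Bmp10, a trabecular growth factor, was at 166 to 178 CPM in LIN9 wt Sav1 wt and 92.5 to 126 CPM in LIN9 wt Sav1 KO. In LIN9 KO it was at 293 to 415 CPM and 242 to 303 CPM, and the pooled value was -0.43 ± 0.10 (SE, adjusted p = 0.189). Nppa, which encodes atrial natriuretic peptide, was at 430 to 491 CPM and 244 to 380 CPM in LIN9 wt (pooled -0.38, adjusted p = 0.261). The Iroquois factor Irx3 was at -0.35 (adjusted p = 0.503). For Bmp10 and Nppa the libraries of both Sav1 genotypes overlapped in LIN9 KO. The 3 genes of the compact myocardium, the outer layer, were above 0, compared with 50.4% of all genes, with 0.19 for the Notch effector Hey2, 0.18 for the T-box factor Tbx20 and a median of 0.18. Their summed level was 783.2 to 979.2 CPM in LIN9 wt Sav1 wt and 972.3 to 1055 CPM in LIN9 wt Sav1 KO, which overlap, and 694.8 to 808.9 CPM and 880.1 to 903.6 CPM in LIN9 KO, which do not.

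Of 20 sarcomere genes tested, 16 were above 0, compared with 50.4% of all genes (median 0.07), and Myh7b, a slow myosin heavy chain, was at 0.29 (adjusted p = 0.311). Of 9 cardiomyocyte markers tested, 8 were above 0 (median 0.06), and none had an unadjusted p under 0.05. Of 11 calcium handling genes 7 were above 0, as were 7 of 11 genes of the dystrophin complex and 4 of 8 smooth muscle and pericyte markers, and 1 gene of each of these lists had an unadjusted p under 0.05 (9.09%, 9.09% and 12.5%, compared with 8.27% of all genes). Casq2, the calsequestrin that buffers calcium in the sarcoplasmic reticulum, was at 296 to 358 CPM in the 6 Sav1 wt libraries and 363 to 457 CPM in the 6 Sav1 KO libraries, without overlap (0.30 ± 0.073 SE, adjusted p = 0.188). Sntb1, a syntrophin of the dystrophin complex, was at 0.45 (adjusted p = 0.188). Acta2, the smooth muscle actin that the embryonic myocardium also expresses, was at 0.31 (adjusted p = 0.188). Among cardiac transcription factors 9 of 18 were above 0, with Myocd, the coactivator of serum response factor, at 0.22 and Tbx2, a repressor of chamber genes, at -0.27.

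**Figure D5:**
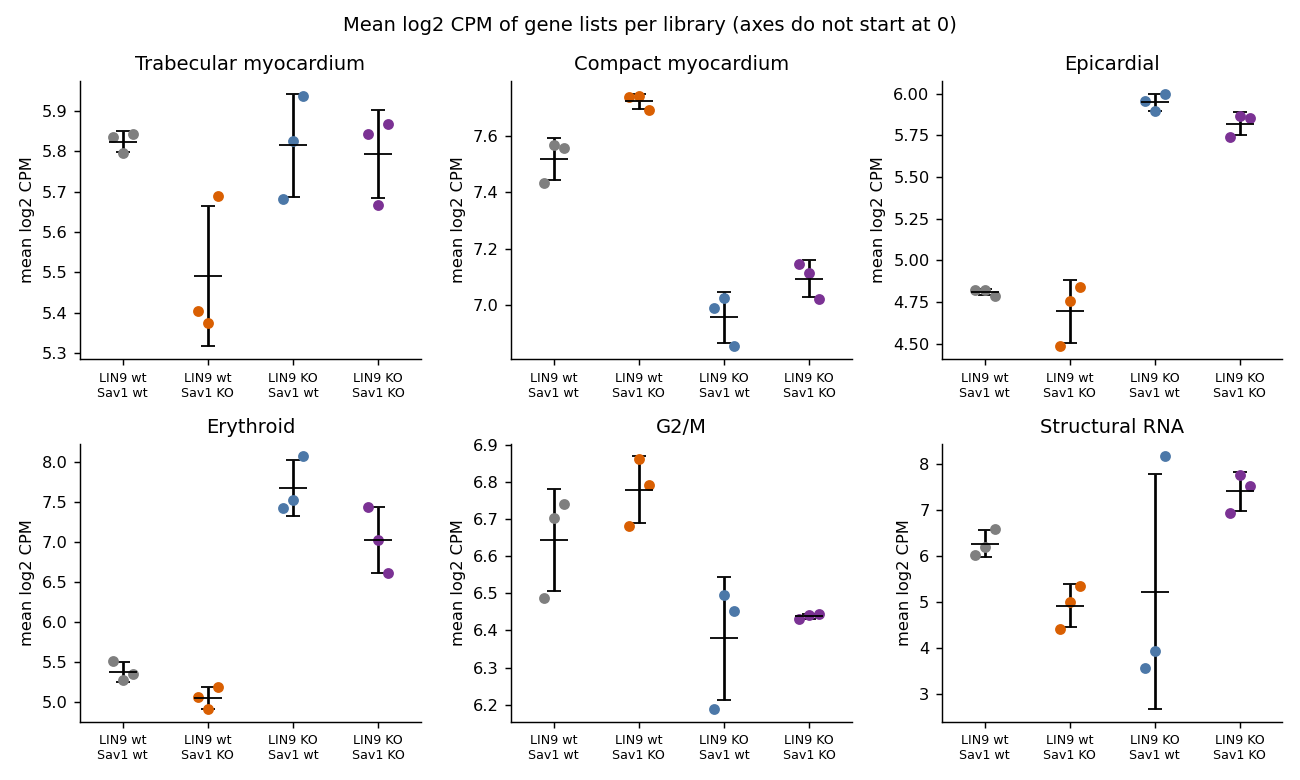
Mean log2 CPM over the tested genes of 6 lists (y axes, not starting at 0) in the 4 genotypes (x axis); points are libraries, marks and bars the mean and SD of 3 libraries. By this mean, the trabecular list is separated by Sav1 genotype within LIN9 wt only, the compact list within LIN9 wt with an overlap of 7.02 and 7.026 in LIN9 KO, the erythroid list is lower in Sav1 KO within LIN9 wt, and structural RNA spans 3.58 to 8.16 within LIN9 KO Sav1 wt.

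The lists of signalling pathways differed in sign, but the medians above 0 fell below 0 in some fits with 1 library left out. Over all genes 49.6% were below 0 and 8.27% had an unadjusted p under 0.05. Of 16 neuregulin and FGF genes tested, 9 were above 0 (median 0.06), and of 10 Slit and Robo genes 7 were above 0 (median 0.04). With 1 library left out these medians ranged from -0.0228 to 0.0664 and from -0.0584 to 0.0899. They were -0.035 and -0.0865 within LIN9 wt and 0.206 and 0.145 within LIN9 KO. Of 18 TGF-beta and BMP genes, 13 were below 0 (median -0.12), 4 of them at an unadjusted p under 0.05, compared with 4.56% of all genes in this direction. Besides Bmp10 these included Id2, a target of BMP signalling (-0.24), and Bmp6 (-0.35), whereas the activin subunit gene Inhba was at 0.41. In the Notch list 9 of 12 were below 0 (median -0.13), with the receptor Notch3 at -0.32, the ligand Jag2 at -0.28 and the effector Hey1 at -0.32. Jag2 lay between -0.339 and -0.167 with 1 library left out. An unadjusted p under 0.05 was found for 3 lower members and 1 higher member, and the highest value of the list was 0.191. The Notch effector Hey2, given above with the compact myocardium, was at 0.19. Of 14 WNT target genes, 10 were below 0 (median -0.20), with Ccnd1, Myc (-0.28) and Axin2 (-0.38) on the lower side and Znrf3 (0.31) on the other. In this list 4 lower and 2 higher members (42.9%) were at an unadjusted p under 0.05. No member of these signalling lists passed the threshold, with adjusted p between 0.189 and 0.587 for those named.

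In the hypoxia and glycolysis lists the median was near 0 within LIN9 wt and below 0 within LIN9 KO. For hypoxia response genes (10 tested) the median was 0.01 within LIN9 wt and -0.36 within LIN9 KO. No gene of either list passed the threshold in the pooled fit. Of the hypoxia response genes, 3 (30%, compared with 8.27% of all genes) were at an unadjusted p under 0.05, all with lower counts. In the pooled fit Bnip3 was at -0.33, Pdk1 at -0.19 and Egln3 at -0.45 (adjusted p = 0.597). Egln3 lies 15.8 Mb from Sav1 on chromosome 12, and was at -0.09 within LIN9 wt and -0.69 within LIN9 KO. Egln3 lay between -0.559 and -0.282 with 1 library left out. For 20 glycolysis genes the medians were 0.05 and -0.25, with Pkm at -0.16. The difference between these medians was not tested. H19 and Igf2, which are neighbouring imprinted genes with opposite parental expression, were at -0.05 and 0.08 within LIN9 wt and at -0.50 and -0.51 within LIN9 KO (interaction adjusted p = 0.678 and 0.536). Genes of the respiratory chain (57 tested), the citric acid cycle (18) and fatty acid oxidation (17) included no gene at an unadjusted p under 0.05, compared with 8.27% of all genes, with medians of -0.01, 0.02 and -0.02. The same held for 18 p53 targets, with a median of -0.01.

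Markers of cells other than cardiomyocytes were measured in the same libraries. All 13 erythroid genes tested were below 0 in Sav1 KO, as were 49.6% of all genes, and their median was -0.53 on the log2 scale, but none passed the threshold. Their summed level was 4266 to 5355 CPM in LIN9 wt Sav1 wt and 3342 to 4384 CPM in LIN9 wt Sav1 KO, and 21240 to 39060 CPM and 10710 to 30870 CPM in LIN9 KO, with an overlap in both backgrounds. Slc4a1, the anion exchanger of red cells, was at 29.4 to 32.2 CPM and 19.2 to 21.5 CPM in LIN9 wt (pooled -0.63, adjusted p = 0.215). The embryonic globin Hba-x was at -0.67, the erythropoietin receptor Epor at -0.53 and the erythroid factor Klf1, at 5.96 CPM or less, at -1.08. Klf1 lay between -1.66 and -0.785 with 1 library left out. With each library left out in turn the erythroid median lay between -0.577 and -0.415. Other medians moved more in proportion, from -0.302 to -0.105 for trabecular, -0.261 to -0.0847 for atrial and -0.146 to -0.0499 for endothelial genes. They moved from -0.178 to -0.0518 for Notch and from -0.155 to -0.0383 for TGF-beta and BMP genes. Medians above 0 moved from 0.0181 to 0.099 for cardiomyocyte and from 0.0311 to 0.141 for macrophage markers. For G2/M genes the range was 0.0125 to 0.0424 and for the dystrophin complex 0.00182 to 0.106. Medians near 0, such as that of the YAP targets (-0.048 to 0.0286), changed sign.

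Over all genes 49.6% were below 0 and 8.27% had an unadjusted p under 0.05. Epicardial markers were below 0 in 8 of 10 genes (median -0.14), with Lrrn4 at -0.36 and Upk3b at -0.24, while Wt1 was at 0.00. An unadjusted p under 0.05 was found for 4 epicardial markers (40%), all lower in Sav1 KO. The summed level of the epicardial list was 346 to 350 CPM in LIN9 wt Sav1 wt and 297 to 347 CPM in LIN9 wt Sav1 KO. In LIN9 KO it was 673 to 743 CPM and 615 to 652 CPM. These sums overlapped in LIN9 wt and did not overlap in LIN9 KO. Endothelial and endocardial markers were below 0 in 9 of 15 genes (median -0.10), with Eng at -0.21, Nfatc1 at -0.20 and Plvap at -0.29. The other 6 were above 0, up to 0.07, and 3 of the list (20%) were at an unadjusted p under 0.05. All 15 summed to 1612 to 1620 CPM in LIN9 wt Sav1 wt and 1402 to 1520 CPM in LIN9 wt Sav1 KO, without overlap. The sums overlapped in LIN9 KO, and the mean log2 CPM of the list overlapped in both backgrounds. All 7 atrial markers were below 0 (median -0.15), with Nr2f2 at -0.22, and 1 of them (14.3%) was at an unadjusted p under 0.05. Fibroblast and cushion mesenchyme markers had a median of 0.02 (11 tested), smooth muscle and pericyte markers of 0.02 (8 tested) and macrophage markers of 0.09 (12 tested, with Lyve1 at 0.58). The first 2 of these medians ranged from -0.0662 to 0.0367 and from -0.0613 to 0.076 with 1 library left out. Smooth muscle and pericyte markers summed to 1586 to 1659 CPM in LIN9 wt Sav1 wt and 1838 to 1889 CPM in LIN9 wt Sav1 KO, without overlap. Their sums overlapped in LIN9 KO, and their mean log2 CPM overlapped in both backgrounds. The macrophage median was -0.22 within LIN9 wt and 0.25 within LIN9 KO. No marker of these cell types passed the threshold. How far these cell types contribute to other differences was not tested.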

How the data were processed

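RNA-seq counts per Ensembl gene were analysed for the 12 ventricle libraries of the second RNA-seq experiment. According to the study, the authors mapped poly(A) RNA reads with TopHat2 (2.1.0) and Bowtie2 to mm10, scaled all libraries to the one with the fewest mappable reads and deposited whole-number counts for GRCm38.p6 genes. Strand settings are not given in the sources used here. The deposited tables of the authors' own fold changes and p-values were not used. The other 10 samples, another RNA-seq experiment and ChIP-seq, were not used here.

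Of 4 repeated identifiers the first was kept. Genes with a mean count above 1 were fitted in edgeR 4.0.16 (R 4.3.3; TMM, robust quasi-likelihood F test) with LIN9 and Sav1 genotype as terms and Benjamini-Hochberg adjustment at 0.05. SE is the absolute log2 fold change divided by the square root of F. CPM are counts scaled by total and TMM factor. Effects within LIN9 backgrounds and the interaction came from a 4-group model. Log2 CPM for library comparisons used a prior count of 2, and principal components the genes with a mean of at least 5 CPM. Alternatives included DESeq2 1.42.0, other filters and scaling, a replicate block and leaving out each library. The procedure was also run on counts simulated with a Sav1 effect on some genes above a higher count minimum and with no LIN9 effect. Since the real counts differ by LIN9 genotype, this run checks the code and not the calls made here. With these totals, 1 CPM corresponds to about 3 counts.

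Same-numbered libraries of both Sav1 genotypes deviated together in the LIN9 wt background (correlations from 0.102 to 0.33) and with those of LIN9 KO Sav1 wt (0.116 to 0.637), but LIN9 KO Sav1 KO did not follow its numbers (-0.104 to 0.159 with LIN9 KO Sav1 wt), so the pooled comparison was not taken as paired.

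Named genes were Sav1 and Lin9, genes past the threshold, those of lowest p up to 20 (1 of these is not reported here), up to 4 of lowest p in each list described, Hippo, YAP, TAZ and TEAD genes, 5 YAP targets and 6 genes for the interaction. The lists and members were chosen with earlier results of these data known. Positions are from GENCODE M21; 59 genes had none. Binomial intervals cover counting error only.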

Additional observations from a re-analysis of the deposited data

Results flagged for a closer look

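In 4 of the named genes every library moved one way with the Sav1 genotype in LIN9 wt and every library the opposite way in LIN9 KO; the difference itself did not pass the adjusted threshold. The interaction on the log2 scale (effect in LIN9 KO minus effect in LIN9 wt) was -0.876 for Itga3, -1.21 for the pseudogene Gm8349, -0.623 for 2310022B05Rik and 1.01 for Pcca. Pcca was at 24.3 to 35.2 CPM in LIN9 wt Sav1 wt and 20.5 to 22.6 CPM in LIN9 wt Sav1 KO, and at 14.8 to 16.4 CPM and 22.4 to 26.8 CPM in LIN9 KO. Gm8349 was at 14.1 to 15.6 CPM and 19.8 to 22.6 CPM in LIN9 wt, and at 17.1 to 24.3 CPM and 10.6 to 13.0 CPM in LIN9 KO. 2310022B05Rik was at 183 to 201 CPM and 220 to 252 CPM in LIN9 wt, and at 204 to 242 CPM and 164 to 189 CPM in LIN9 KO. These genes were named for their low interaction p, so their separation is a description. Over all genes, 64 (0.362%) and 42 (0.238%) showed such opposite separation.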

How the results depend on the processing

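The number of genes past the threshold for the pooled Sav1 effect, 3, was 5 with DESeq2 size factors, 49 without a filter on low counts, 1 without robust estimates, 12 with a replicate block, 8 as the average of both backgrounds, 0 without the LIN9 covariate (543 at an unadjusted p under 0.05) and 17 with DESeq2's Wald test. It was 2 with filterByExpr. Leaving out 1 library gave 1 to 8. For the interaction (0) it was 17 without a filter and 0 to 64 with 1 library left out. Within LIN9 wt (3) it was 22 without a filter, 1 without robust estimates, 31 in the 6 libraries alone and 0 to 7 with 1 library left out. Within LIN9 KO (2) it was 309 without a filter, 0 with filterByExpr, without robust estimates or in the 6 libraries alone, 84 with the replicate block and 0 to 378 with 1 library left out. The cause of these shifts was not tested. Alternatives of the effects within backgrounds other than the block and the 6 libraries alone were chosen after seeing the data. Same-numbered libraries did not deviate together throughout (10 of 18 pairs had a correlation above 0.1, and 7 of 12 libraries correlated best with their own number), so the block adds a number and no known litter or day. In LIN9 wt, where all 3 pairs did, the block left Slit2 and Gm4742 but not Sptb past the threshold (2 genes).

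Snapc1, Gm21887 and Erdr1 passed in 17, 17 and 11 of 20 alternatives, and kept their direction in all of these. Without the LIN9 covariate all 3 calls were lost (adjusted p = 0.383, 0.447 and 1), without robust estimates those of Gm21887 (0.0721) and Erdr1 (0.152), and with filterByExpr that of Erdr1 (0.0555). The share of genes at an unadjusted p under 0.05 near Sav1, 14.3% within 20 Mb, was 27.0% within 5 Mb and 9.98% within 50 Mb. Within 5 Mb it was 22.6 to 31.7% with 1 library left out and 15.9% without the LIN9 covariate (8.57% within 20 Mb), where the share of all genes was 3.07% in place of 8.27%. The Sav1 counts kept their direction, and their exact permutation p stayed under the threshold, with each library left out, and Lin9 kept its direction. Some values kept their sign but varied with the library left out, such as Yap1 (-0.183 to -0.0752) and Ctgf (0.0466 to 0.209). With 1 library left out, genes close to 0 changed sign; their log2 fold changes ranged from -0.0159 to 0.117 for Fat4, -0.116 to 0.0268 for Amotl2, -0.1 to 0.0139 for 2310022B05Rik, -0.00473 to 0.0646 for Tead1, -0.167 to 0.0771 for Gm8349, -0.0337 to 0.218 for Pcca, -0.062 to 0.227 for Vgll3, -0.0405 to 0.0878 for Stk3, -0.091 to 0.0286 for Lats2, -0.00951 to 0.0553 for Tead3, -0.0298 to 0.106 for Itga3, -0.0532 to 0.0204 for Frmd6, -0.0125 to 0.0508 for Amot, -0.0274 to 0.0399 for Taok2, -0.0776 to 0.108 for Dchs1, -0.0416 to 0.0421 for Nf2 and -0.032 to 0.031 for Wwc2.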
